A study of Homo sapiens with 6 samples.

Results

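Galectins are lectins that bind beta-galactoside sugars, mostly on glycoproteins, through a conserved carbohydrate recognition domain. Their transcripts were read in Hep3B, an established cell line from a human hepatocellular carcinoma, in which the miR-17 family of microRNAs was inhibited or left with a control. The genes described are LGALS1, LGALS3, LGALS4, LGALS8, LGALS9 and LGALS14, which encode galectins, and LGALS3BP, which encodes a secreted galectin ligand. They were taken by gene symbol, and they were brought together because of the large difference of LGALS14 between the groups, so the values of that gene are given as a description with no test. The other 6 genes were included as relatives of LGALS14, and their rows of a fit over all probe sets are given. These 7 genes, of 19775 genes named on the array, had 13 of the 54613 probe sets (groups of short probes for a transcript) that are not array controls.

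Cells of both groups received lentiviral particles for 48 hours, at a multiplicity of infection of 5, that encoded a TuD (tough decoy, an RNA whose open sites capture microRNAs), and were selected with 1.0 μg/mL puromycin. Colonies that resisted the drug were pooled after 2 weeks to give a stable line. One group, miR-17 TuD (3 arrays), carried the decoy against the miR-17 family, and the other, NC TuD (3 arrays), the control decoy. Both share the transduction, the puromycin and the vector type, and each group rests on 1 pooled line. Whether the 3 arrays of each line came from different cultures is not stated, so the spread behind each p-value may be only technical. The sample descriptions also hold a code with 72HR on all 6 arrays, PLUSDOX on the miR-17 TuD arrays and NODOX on the NC TuD arrays. The labels do not explain this code, and its effect cannot be told apart from that of the decoy.

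Galectins fall into 3 structural types. Prototype galectins, such as galectin-1 (LGALS1) and the placental galectin of LGALS14, have a single recognition domain and often pair. Galectin-3 (LGALS3) is a chimera of a recognition domain and a tail through which it oligomerises, and galectins 4, 8 and 9 are tandem repeats with a pair of domains in a chain. They act outside cells, where they cross-link branched N-glycans, and inside cells, where some mark damaged endosomes and lysosomes. Galectin-1 and galectin-3 are often raised in liver cancer, whereas galectin-14 is known mainly from the syncytiotrophoblast of the placenta.

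The decoy of the miR-17 TuD line is directed at the miR-17 family, whose mature strands are shown because they share the seed that defines the family. The decoy sequence was not examined here, so which of these strands it captures is not known. The 6 mature 5p strands below were matched by name in RefSeq (GRCh38.p14). They are written 5′ to 3′, with the seed, bases 2 to 8, in capitals. All 6 carried 1 seed. MicroRNAs of the family were not measured on these arrays.
miR-17-5p: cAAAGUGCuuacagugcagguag
miR-20a-5p: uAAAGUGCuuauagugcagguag
miR-20b-5p: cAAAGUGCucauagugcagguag
miR-93-5p: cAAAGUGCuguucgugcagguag
miR-106a-5p: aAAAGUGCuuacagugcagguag
miR-106b-5p: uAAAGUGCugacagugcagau

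Levels are the authors' deposited log2 expression values, and each difference is the miR-17 TuD mean less the NC TuD mean. Over all probe sets, correlations between arrays were 0.9994 to 0.9997 inside a group and 0.9988 to 0.9991 across groups, and no pair was identical. The deposited scale ends at a lowest value of 2.12, shared by all arrays, so a gene listed there has no measured level. Some probe sets held 1 higher value on all 6 arrays, XAGE2 at 3.91 and SUFU at 6.08 among them. A value above 2.12 may therefore not be a measured level either. Arrays give no counting depth, and the number of arrays limits the precision. Genes that define hepatocytes were well above the lowest value, with ALB, serum albumin, at 15.99 in the miR-17 TuD and 16.20 in the NC TuD arrays. Of 18 stromal, endothelial and immune markers, 9 lay within 0.02 of the lowest value on every array, PTPRC, CDH5 and VWF among them. Others stood well above it, among them the matrix genes COL1A1 (12.79 in the miR-17 TuD and 12.45 in the NC TuD arrays), LUM (10.67 and 10.44) and COL1A2 (9.35 and 8.91), with adjusted p from 0.112 to 0.277 in limma.

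LGALS14 was 4.46-fold lower in the miR-17 TuD line. The gene is measured by a single probe set, 220158_at. Its close relative LGALS16 had no probe set paired with it alone. Probe sequences were not examined, so whether LGALS16 has a share of this signal is uncertain. The LGALS14 probe set stood at 7.64, 7.58 and 7.76 in the miR-17 TuD arrays and at 9.93, 9.72 and 9.81 in the NC TuD arrays. The miR-17 TuD arrays were all low and the NC TuD arrays all high, with no overlap between the groups. The means were 7.66 ± 0.092 against 9.82 ± 0.1 (SD, n = 3), a log2 difference of -2.16 (SE 0.075). No test is given for it, because the gene was chosen for this difference. For the same reason its rank, 1 of 13949 genes by the size of the fall, is only a description. NSUN7 came next at -1.40. Leaving out any 1 array kept the LGALS14 difference between -2.21 and -2.10.

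**Figure D1:**
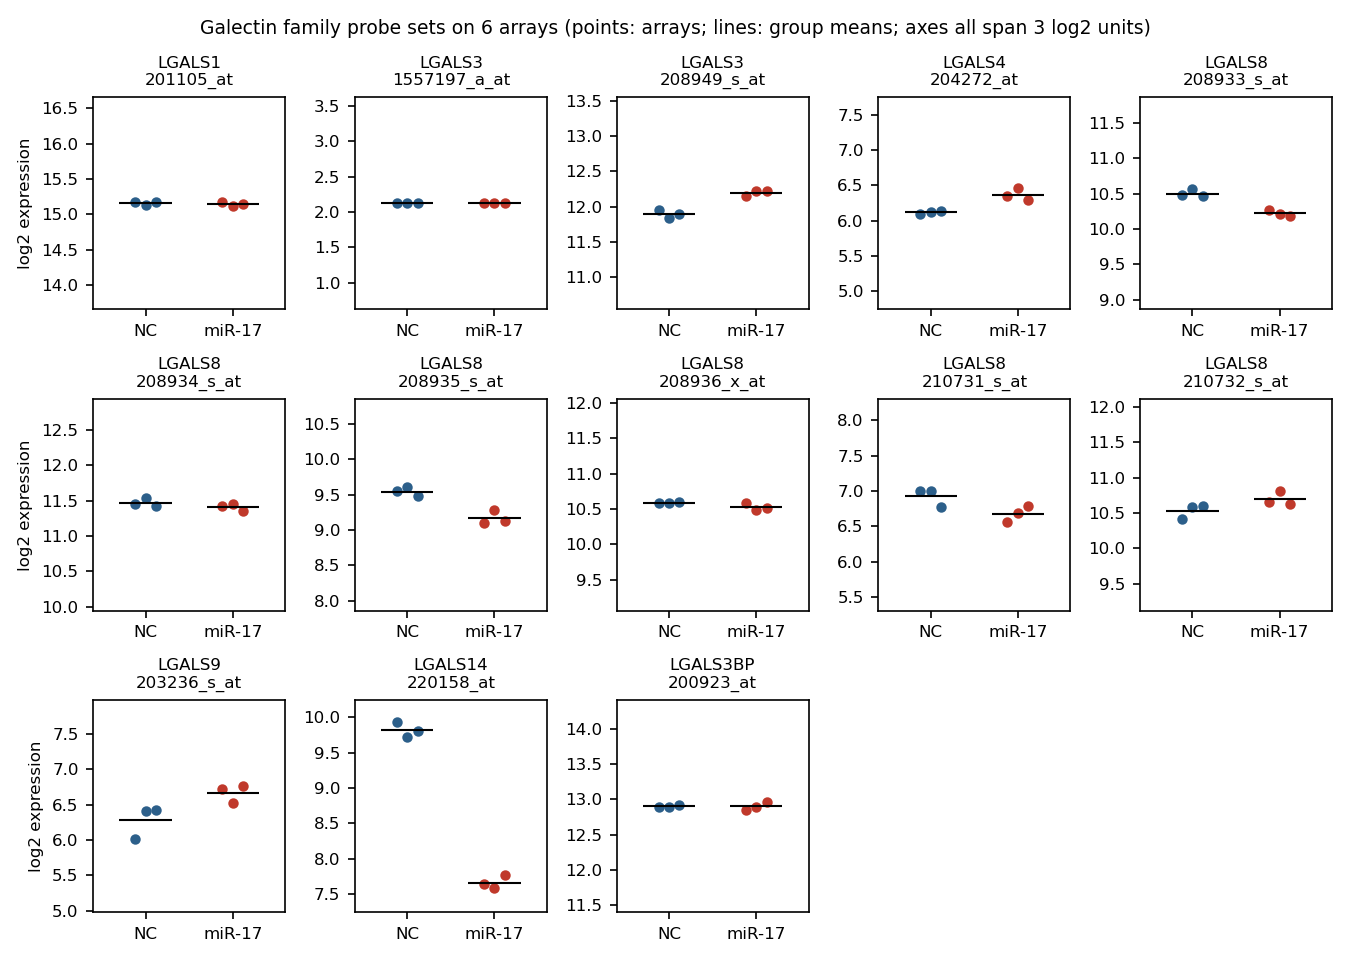
Deposited log2 expression of each of the 13 galectin family probe sets, with points for the 3 NC TuD arrays (blue) and the 3 miR-17 TuD arrays (red) and lines at group means. Every panel spans the same log2 range; LGALS14 is the panel in which the groups lie farthest apart (7.66 against 9.82), and 1557197_a_at of LGALS3 lies at the lowest value, 2.12, on all arrays.

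LGALS14 lies on chromosome 19 in a cluster of placental galectin genes, where LGALS13 and LGALS16 are the nearest protein-coding genes on the side toward LGALS4 and CLC, which encodes galectin-10 of eosinophils and basophils, is the next on the other side (gene order from RefSeq, GRCh38.p14). The promoter windows of LGALS14 and LGALS13 are shown because the sequences are close relatives. The LGALS13 probe set gave no measured level, so the expression of these genes is not compared. The LGALS13 probe set was listed at 2.12 on all 6 arrays and the CLC probe set likewise, both at or next to the lowest value. Over 297 aligned bases, the windows of LGALS14 and LGALS13 were identical at 257, which is 86.5%. The windows are from RefSeq (GRCh38.p14), plus strand, chr19:39704231-39704530 for LGALS14 and chr19:39602274-39602573 for LGALS13, and run from 250 bases before to 50 bases after the annotated start.
LGALS14: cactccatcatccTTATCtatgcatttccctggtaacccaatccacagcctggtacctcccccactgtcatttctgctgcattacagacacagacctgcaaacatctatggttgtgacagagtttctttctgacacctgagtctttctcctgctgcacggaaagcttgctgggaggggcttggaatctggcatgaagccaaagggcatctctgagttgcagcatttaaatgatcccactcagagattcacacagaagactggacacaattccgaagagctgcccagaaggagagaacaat
LGALS13: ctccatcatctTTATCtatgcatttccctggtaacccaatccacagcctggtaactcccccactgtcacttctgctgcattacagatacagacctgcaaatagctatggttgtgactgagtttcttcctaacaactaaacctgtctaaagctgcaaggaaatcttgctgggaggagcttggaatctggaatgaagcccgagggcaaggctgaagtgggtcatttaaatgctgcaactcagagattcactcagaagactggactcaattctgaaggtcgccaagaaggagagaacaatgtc

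The capitals in both windows mark the match to GATAA, the core that GATA factors recognise, which lies on the minus strand in each and starts 237 bases before the LGALS14 start. Of 35116 RefSeq promoter windows of 300 bases, 22.7% held GATAA on either strand, so the match is common. The pattern GCCNNNGGC, the core of TFAP2 sites, was searched on both strands and was found in neither window, and 23.2% of all windows held it. GATA2 and TFAP2A, transcription factors of trophoblast and other tissues, stood at 10.17 and 10.84 in the miR-17 TuD arrays and differed by 0.01 (adjusted p = 1 in limma) and 0.02 (adjusted p = 0.807). GATA3 fell from 3.92 ± 0.37 to 2.76 ± 0.036 (SD, n = 3, log2 difference -1.15, adjusted p = 0.0328 in limma), close to the lowest value. Its miR-17 TuD replicates 2 and 3 shared 1 value, 2.74. Of the 6 fits with 1 array removed, 5 lost the GATA3 call, as did the fits without a filter on low values, with array weights (adjusted p = 0.0573 in limma) and with the replicate number as a block (0.0737). Binding was not measured here.

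No measured neighbour of LGALS14 differed as much, with differences from -0.26 (ZNF780A, adjusted p = 0.533 in limma) to 0.25. Of 31 genes on the array from a list of chromosome 19 neighbours, between LGALS7 and ZNF780A, 24 passed the filter on low values, 4 rose and 1 fell, with a median of 0.03 against 0.00 over all genes. In the fit over 1 probe set per gene, 11.4% of all 13949 genes passed the threshold of 0.05, 6.78% higher and 4.60% lower. EID2, which encodes an inhibitor of differentiation 3 protein-coding genes from LGALS14, fell (-0.21, adjusted p = 0.00945 in limma). PAF1 (0.25), ZFP36 (0.25) and TIMM50 (0.23) rose, with calls lost in 4, 5 and 5 of the 6 fits with 1 array removed, and LGALS4, described below, was the other gene past the threshold. The number called was 0 without NC TuD replicate 2 (8 at an unadjusted p under 0.05 in limma), 1 without NC TuD replicates 1 or 3 and 3 without miR-17 TuD replicate 1.

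Outside LGALS14, the galectin family differed less and in both directions. Of the 11 other member probe sets that passed the filter, 3 passed the threshold in limma (adjusted p under 0.05), 1 higher (LGALS3) and 2 lower (both LGALS8). Over all 32768 probe sets 5.83% passed, 3.35% higher and 2.48% lower. Groups did not overlap in 6 of these 11 probe sets, against 27.3% of all probe sets. Because the family was chosen from this same contrast, nothing is read from these shares. The differences of the 11 ran from -0.38 to 0.39. Each of the 3 calls ended without a filter on low values and with the replicate number as a block, and that of 208935_s_at also with robust eBayes (adjusted p = 0.054 in limma) and array weights (0.0509). With 1 array removed the number called was 0 in 5 of 6 fits and 1 in the other, without miR-17 TuD replicate 2, with 4 or 5 of the 11 at an unadjusted p under 0.05 in each.

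**Figure D2:**
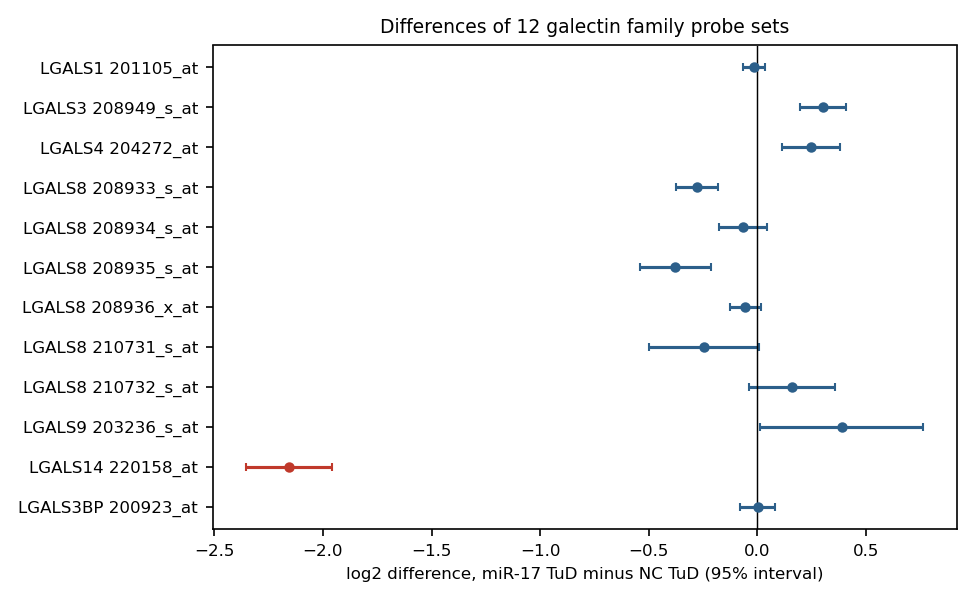
Log2 difference (x axis, miR-17 TuD minus NC TuD) with its 95% interval from limma for the 12 probe sets that passed the filter on low values. LGALS14 lies at -2.16, and the other 11 lie between -0.38 and 0.39. The interval of LGALS14 comes from the values the gene was chosen for, so it is not a test.

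LGALS1, the prototype galectin-1, differed by less than the spread between arrays. It stood at 15.18, 15.12 and 15.15 in the miR-17 TuD arrays and at 15.18, 15.14 and 15.17 in the NC TuD arrays. The groups overlapped throughout. The difference was -0.01 with a 95% interval of -0.06 to 0.04 (adjusted p = 0.72 in limma). At 15.1 to 15.2 the probe set is near the upper end of the scale, where the highest value was 16.3.

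LGALS3, the chimera galectin-3, rose 1.23-fold. Its probe set 208949_s_at stood at 12.15, 12.22 and 12.22 in the miR-17 TuD arrays and at 11.96, 11.83 and 11.90 in the NC TuD arrays. The miR-17 TuD arrays were all above the NC TuD arrays. The difference was 0.30 (SE 0.04, adjusted p = 0.0304 in limma), and it stayed between 0.27 and 0.33 when any 1 array was removed, although none of those 6 fits kept the call (adjusted p up to 0.106). Another LGALS3 probe set, 1557197_a_at, was at the lowest value of 2.12 on all arrays and gave no level.

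LGALS3BP, a secreted glycoprotein that binds galectin-3 and galectin-1, had nearly equal means in the groups. It stood at 12.85, 12.89 and 12.96 in the miR-17 TuD arrays and at 12.89, 12.89 and 12.92 in the NC TuD arrays. The groups overlapped. The difference was 0.0014 with a 95% interval of -0.08 to 0.08 (adjusted p = 1 in limma). Whether the LGALS3 and LGALS3BP differences differ from each other was not tested.

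LGALS4, a tandem-repeat galectin of the gut epithelium, was higher in the miR-17 TuD arrays by less than the threshold required. It stood at 6.35, 6.47 and 6.29 in the miR-17 TuD arrays and at 6.10, 6.12 and 6.14 in the NC TuD arrays. The groups did not overlap, and the NC TuD arrays were the closer together. The difference was 0.25 (SE 0.051, adjusted p = 0.0674 in limma over all probe sets). In the fit over 1 probe set per gene it passed (adjusted p = 0.0473), and with median centring, the 60th percentile filter or array weights it passed over probe sets too.

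LGALS9, a tandem-repeat galectin that binds the immune receptor TIM-3, had the largest positive difference of the family and the largest spread. It stood at 6.72, 6.52 and 6.76 in the miR-17 TuD arrays and at 6.01, 6.41 and 6.42 in the NC TuD arrays. The groups did not overlap, but NC TuD replicate 1 lay well below the other NC TuD arrays. The difference was 0.39 (SE 0.14, adjusted p = 0.214 in limma) and was 0.26 without NC TuD replicate 1. The probe set 203236_s_at has the suffix of sets that can bind related transcripts, and the near-identical copies LGALS9B and LGALS9C had no probe set paired with them, so their share of the signal is uncertain.

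LGALS8, the tandem-repeat galectin-8 that recognises damaged endosomes, had 6 probe sets whose differences were not alike. The set 208935_s_at fell 1.30-fold, from 9.55, 9.60 and 9.48 in the NC TuD arrays to 9.10, 9.28 and 9.13 in the miR-17 TuD arrays. The set 208933_s_at fell 1.21-fold, from 10.48, 10.56 and 10.46 to 10.27, 10.21 and 10.19. In both sets every miR-17 TuD array was below every NC TuD array. The log2 differences were -0.38 (SE 0.062, adjusted p = 0.0439 in limma) and -0.28 (SE 0.037, adjusted p = 0.0301). With 1 array removed, none of the 6 fits kept the call of 208933_s_at, and the fit without miR-17 TuD replicate 2 was the one that kept that of 208935_s_at.

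The other LGALS8 probe sets did not pass the threshold in limma. The set 210731_s_at stood at 6.564, 6.683 and 6.795 in the miR-17 TuD arrays and at 7.005, 7.006 and 6.769 in the NC TuD arrays, a difference of -0.25 (adjusted p = 0.236). The sets 208934_s_at and 208936_x_at differed by -0.06 (95% interval -0.17 to 0.05) and -0.05 (95% interval -0.12 to 0.02), with overlapping groups. The set 210732_s_at lay the other way, at 10.65, 10.81 and 10.63 in the miR-17 TuD arrays against 10.42, 10.58 and 10.60, a difference of 0.16 (adjusted p = 0.304) with no overlap. The difference of 210732_s_at exceeded that of 208935_s_at by 0.54 (SE 0.072), a pair picked after the values were seen as the farthest apart, so no test is given. The mean over the 6 LGALS8 probe sets differed by -0.14 (SE 0.03, adjusted p = 0.0529 in limma over genes), short of the threshold. Which transcript each probe set reads was not examined here.

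**Figure D3:**
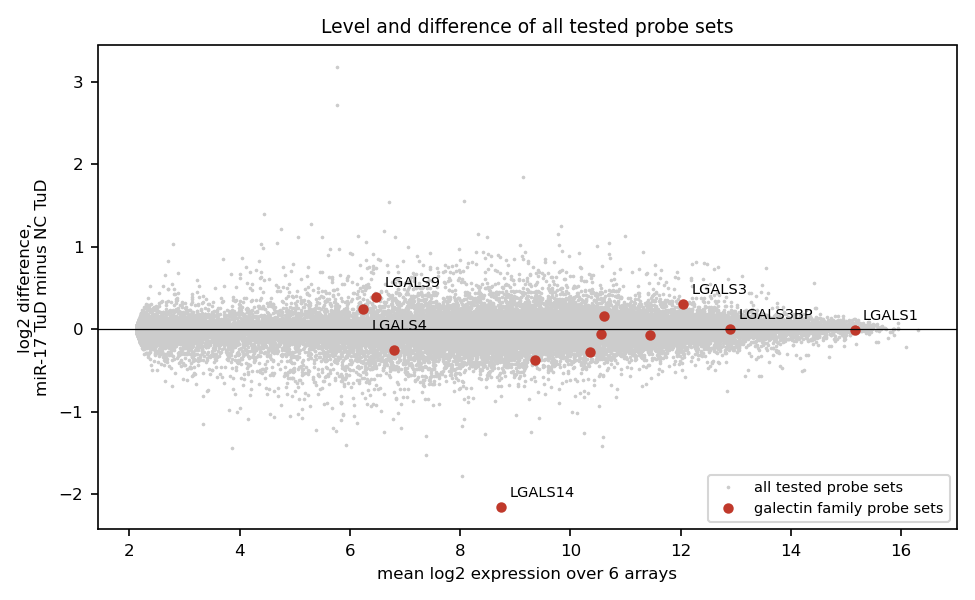
Mean log2 expression over the 6 arrays (x axis) and log2 difference, miR-17 TuD minus NC TuD (y axis), for the 32768 probe sets that passed the filter (grey) and the 12 galectin family probe sets among them (red). LGALS14 lies below all other points at -2.16, and the other members lie within the grey cloud.

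Among galectin relatives outside these genes, LGALSL alone was above the lowest value on the array. LGALSL encodes a galectin-related protein that does not bind lactose. Its probe set 226188_at stood at 10.06, 10.04 and 10.04 in the miR-17 TuD arrays and at 10.49, 10.55 and 10.49 in the NC TuD arrays. The groups were far apart for their spread, and LGALSL fell 1.38-fold (-0.46, SE 0.02, adjusted p = 0.00338 in limma over genes), a call that held with any 1 array removed. The other LGALSL probe set, 219998_at, differed by -0.06 (95% interval -0.18 to 0.06, adjusted p = 0.501) with overlapping groups, so the fall rests on 1 of 2 probe sets, and their mean differed by -0.26. LGALS2, LGALS12, LGALS13 and CLC were at or within 0.02 of the lowest value on all 6 arrays. A probe set shared by LGALS7 and LGALS7B was not named here, and the other 4 relatives on the list had no probe set with a single symbol.

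Among enzymes that build the glycans galectins bind, 5 passed the threshold, in both directions. The list held 32 genes for N-glycan branching, galactosylation, sialylation and fucosylation, related chain and O-glycan enzymes, and nucleotide sugar transporters. Of these, 31 passed the filter, 3 fell and 2 rose, with a median of -0.02 against 0.00 over all genes. The called share was 16.1%, against 11.4% of all genes. MGAT4A, which adds a branch to N-glycans, fell (10.44 ± 0.1 to 9.81 ± 0.073, SD, n = 3, log2 difference -0.63, adjusted p = 0.0127 in limma). GCNT2, which branches poly-N-acetyllactosamine, fell by 0.36 on the log2 scale, and B3GNT2, the main enzyme that extends those chains, fell by 0.23. B3GNT3, which extends core 1 O-glycans, rose by 0.84 (7.58 ± 0.16 to 8.42 ± 0.2, adjusted p = 0.0288 in limma), and FUT8, which adds core fucose, by 0.40. MGAT4B, the enzyme of the list with the highest array value, differed by 0.12 (adjusted p = 0.296).

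These glycan enzyme calls differed in how they held. The MGAT4A call ended when its probe sets were averaged (-0.32, adjusted p = 0.0605) and without NC TuD replicates 1 or 2, and the GCNT2 call without NC TuD replicate 2. FUT8 lost its call with any 1 array removed, B3GNT3 and B3GNT2 each in 5 of those 6 fits, and FUT8 differed by 0.07 without s_at and x_at probe sets. The number called was 0 without NC TuD replicate 2 (8 at an unadjusted p under 0.05 in limma), 3 without miR-17 TuD replicate 3, and 2 without NC TuD replicates 1 or 3 or without miR-17 TuD replicate 2.

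Genes for glycoproteins and adaptors that galectins bind differed by small amounts. Of 39 on the array, 36 passed the filter, 3 fell and 2 rose, with a median of -0.02. The called share was 13.9%, against 11.4% of all genes. LAMA5, a laminin chain, fell by 0.36 on the log2 scale, ITGA6, an integrin that binds laminin, fell by 0.16 and TFRC, the transferrin receptor, fell by 0.12. GEMIN4, a nuclear partner of galectin-1 and galectin-3, rose by 0.27, and TSG101, an ESCRT protein, rose by 0.14 (adjusted p from 0.0189 to 0.0479 for these 5 in limma). With 1 array removed, the TFRC call was lost in all 6 fits, those of LAMA5 and GEMIN4 in 5 each, that of ITGA6 in 4 and that of TSG101 in 3. The TFRC call was also lost under quantile normalization or median centring, and the LAMA5 and GEMIN4 calls without a filter on low values and with robust eBayes. LAMP1, a lysosomal membrane glycoprotein rich in galectin ligands, differed by -0.04 (adjusted p = 0.148), and ITGB1, the beta-1 integrin, by 0.01 (adjusted p = 0.917). The number called was 0 without miR-17 TuD replicate 2 (11 at an unadjusted p under 0.05 in limma), 1 without any 1 of the NC TuD arrays, 2 without miR-17 TuD replicate 3 and 3 without miR-17 TuD replicate 1.

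Because LGALS14 is best known from placenta, other trophoblast markers were read beside it. Of 34 on the array, 11 lay within 0.02 of the lowest value on all arrays, including GCM1, ERVW-1 and ERVFRD-1, which define the syncytiotrophoblast lineage, and 23 passed the filter. GATA3 fell, none rose, and the median was 0.00. That is 4.35% of those tested, against 11.4% of all genes. Some tested markers, PAPPA2 and XAGE2 among them, held 1 value on every array and could not be called. With the 60th percentile filter, 3 of 8 were called, against 2104 of 10773 genes. With no filter on low values, 0 of 34 were called, against 789 of 19775 genes. The comparison therefore depends on the filter, and nothing is read from it. CGA, the shared alpha chain of glycoprotein hormones, differed by -0.44 (adjusted p = 0.102 in limma) and ELF5, a trophoblast and epithelial transcription factor, by -0.71 (adjusted p = 0.0547), both short of the threshold. SVEP1 (0.53, adjusted p = 0.211 in limma) and KRT7 (0.35, adjusted p = 0.193) lay the other way, also short of it. CGA, KRT7 and ELF5 stood well above the lowest value. Levels in miR-17 TuD and NC TuD arrays were 8.97 and 9.41 for CGA, 9.41 and 9.06 for KRT7 and 7.84 and 8.55 for ELF5. HLA-G, the marker of the list with the highest array value, differed by -0.07 (adjusted p = 0.112 in limma). Its probe set 211528_x_at has the suffix of sets that can bind other transcripts, so the HLA-G share of that value is uncertain. The mean log2 level over the 34 genes was 4.20 to 4.27 in the miR-17 TuD arrays and 4.27 to 4.30 in the NC TuD arrays. The number called was 0 without NC TuD replicates 1 or 2 and without miR-17 TuD replicate 1, with 4 or 5 at an unadjusted p under 0.05 in limma, and 2 without miR-17 TuD replicate 3.

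Markers of hepatocytes and of Hep3B (hepatocyte markers for short) were lower together with LGALS14. Of 20 measured, 16 fell and none rose, where 4.60% of all genes fell and 6.78% rose, and the median was -0.47. The largest falls of the list were those of APOA1 (-1.31), AFP, alpha-fetoprotein (-1.27), and FGB (-1.26). With averaged probe sets 15 fell and 1 rose, and without s_at and x_at probe sets, of 13 tested, 6 fell and 1 rose. Their mean log2 level was 12.08 to 12.10 in the miR-17 TuD arrays and 12.58 to 12.62 in the NC TuD arrays. The part of this difference in that of LGALS14 was not tested, and in bulk RNA fewer cells with a transcript and less of it per cell cannot be told apart. Without NC TuD replicate 1 the number that fell was 9, without replicate 2 it was 6 and without replicate 3 it was 7. Of the stromal, endothelial and immune markers, 9 passed the filter and 1 was called, 11.1% against 11.4% of all genes. This was LYZ, lysozyme, which rose by 0.59 (adjusted p = 0.0193 in limma), and its difference was 0.07 without s_at and x_at probe sets. That count of 1 was 3 without miR-17 TuD replicate 1 and 0 without miR-17 TuD replicate 2 and whenever 1 NC TuD array was removed, where 1 or 2 were at an unadjusted p under 0.05 in limma.

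**Figure D4:**
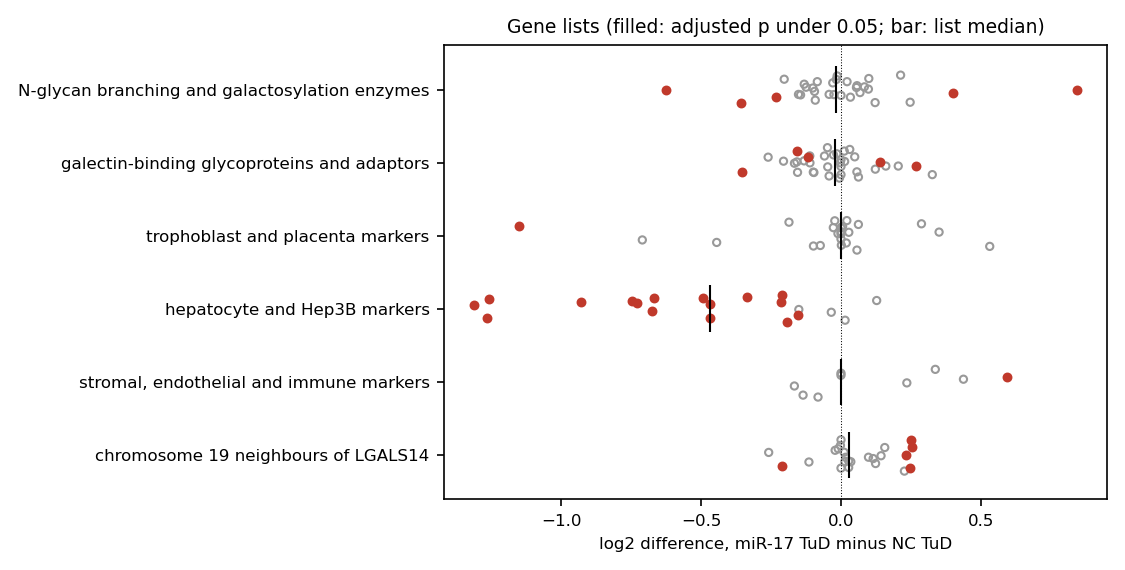
Log2 difference (x axis, miR-17 TuD minus NC TuD) of the genes of 6 lists that passed the filter, 1 point a gene, filled where the adjusted p in limma passed the threshold, with a bar at each list median. Hepatocyte and Hep3B markers lie mostly below 0 (median -0.47), and the medians of the other lists lie between -0.02 and 0.03.

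The genes whose values over the 6 arrays most resembled those of LGALS14 were taken from the 37 genes outside the family that differed by at least 1 on the log2 scale. The 5 with the highest Pearson correlation were APOA1 (r = 0.994), an apolipoprotein of high-density lipoprotein, UGT3A1 (r = 0.989), a sugar transferase, LOX (r = 0.986), lysyl oxidase, INHBA (r = 0.983), an activin subunit, and NSUN7 (r = 0.981), a member of the NSUN family of RNA methyltransferases. These correlations are descriptions over 6 arrays, and every gene of the 5 is lower in the miR-17 TuD line, so they mostly restate the group difference. The difference was -1.31 for APOA1, -1.02 for UGT3A1, -1.04 for INHBA (-0.55 over the mean of its probe sets) and -1.40 for NSUN7, against -2.16 for LGALS14.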

How the data were processed

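Total RNA of 6 Hep3B samples was hybridised to Affymetrix HG-U133 Plus 2 arrays. The authors deposited a log2 value for each probe set on each array. RMA and GCRMA appear in the submitters' processing notes without a role or version; the sources used here name no scanner software and no genome build. Normalization between arrays can shrink small differences, and the shared lowest value hides changes of weak genes. Values were kept as deposited.

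The 62 control probe sets were left out. GEO's platform annotation pairs 41091 probe sets with 1 gene symbol, 1801 with several (not named) and 11721 with none; symbols were updated by Entrez identifier against RefSeq. Probe sets with a mean at or under the 40th percentile (2.14) were not tested. The test was limma 3.58.1 under R 4.3.3 (lmFit and eBayes, 2-sided, threshold 0.05 after Benjamini-Hochberg adjustment) over 32768 probe sets for the galectin genes and, for gene lists, over 13949 genes, each read by its brightest probe set. LGALS14 was given no p. The pipeline was tested on simulated data.

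The genes and lists were chosen with earlier results of these data known. Named are all probe sets of the 7 genes, the other galectins, up to 6 called members and up to 3 of the highest level per list, and the 5 genes most like LGALS14. ELF5, CGA, SVEP1, KRT7, XAGE2, SUFU, GATA2, ZNF780A, PTPRC, CDH5, VWF, GCM1, ERVW-1 and ERVFRD-1 fall outside this rule and were chosen after their values were seen. Promoter windows and microRNA sequences are from RefSeq (GRCh38.p14), where 6 of the 7 genes had a promoter entry; windows were aligned with Biopython 1.88.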

Additional observations from a re-analysis of the deposited data

How the results depend on the processing

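The LGALS14 difference lay between -2.21 and -2.10 in the 6 fits that left out 1 array and between -2.19 and -2.13 under the other alternatives. Among single genes and probe sets with a test, 445 of 578 repeats kept their side of the threshold, 130 lost the call and 3 gained it. No difference that was called in either fit reversed. Differences short of the threshold could change sign, as that of LGALS3BP did with quantile normalization (0.0014 to -0.01). Counts moved more. Leaving out 1 array gave 145 to 1155 probe sets (1910 with all arrays), 374 to 1243 genes (1588), 0 to 1 of the 3 other galectin probe sets, 0 to 5 glycan enzymes, 0 to 3 galectin-binding genes, 0 to 2 trophoblast, 6 to 16 hepatocyte and 0 to 3 stromal, endothelial and immune markers and 0 to 5 chromosome 19 neighbours. Median centring gave 2930 probe sets (1853 higher, 1077 lower) and 4 trophoblast markers, and quantile normalization 3 trophoblast markers. Without a filter there were 554 probe sets, 789 genes, 0 other galectin probe sets (4 at an unadjusted p under 0.05 in limma), 3 glycan enzymes, 2 galectin-binding genes, 0 trophoblast markers (6 unadjusted) and 3 chromosome 19 neighbours. The 60th percentile filter gave 3271 probe sets and 3 trophoblast markers of 8 tested. Galectin-binding genes numbered 3 with robust eBayes and 3 with array weights, which gave 3 trophoblast markers, GATA3 not among them. Averaged probe sets gave 2 trophoblast markers (1 higher, 1 lower) and 0 stromal, endothelial and immune markers (3 unadjusted). Without s_at and x_at probe sets there were 836 probe sets, 927 genes, 0 other galectin probe sets of 3 (1 unadjusted), 3 glycan enzymes, 3 galectin-binding genes, 0 trophoblast (3 unadjusted), 7 hepatocyte (6 lower, 1 higher) and 0 stromal, endothelial and immune markers (0 unadjusted) and 2 chromosome 19 neighbours. Fewer or more features tested change the adjustment; other causes were not tested.

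The replicate numbers are shared between groups, but deviations of same-numbered arrays from their group means correlated at 0.04, 0.10 and 0.11, so the arrays were not treated as pairs. With the replicate number as a block, limma called 0 probe sets (7488 at an unadjusted p under 0.05), 822 genes, 0 other galectin probe sets (4 unadjusted), 1 galectin-binding gene and 0 trophoblast markers (5 unadjusted).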
